A study of Mus musculus with 19 samples.

Results

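Sedanolide is a phthalide of celery seed oil, and the comparison here is of wild-type mice that received it without any inflammatory challenge. The 5 sedanolide libraries come from medial prefrontal cortex of mice gavaged with sedanolide at 20 mg/kg over 8 days and injected with saline into the peritoneum for 5 days. The 4 control libraries, numbered 1, 2, 4 and 5, come from mice that got saline by both routes on the same schedule. Members were taken by their labels, 9 libraries of the 19 in the series. The other 10, from mice injected with bacterial lipopolysaccharide (LPS, 1 mg/kg) alone (n = 5) or with 20 mg/kg sedanolide as well from 3 days before it (co-treated, n = 5), entered the statistical model and a test of whether the sedanolide change differed with LPS. Each library is a poly(A) RNA-seq library of bulk tissue, so fewer cells of a type and less RNA per cell cannot be told apart. The labels do not say that replicates are separate animals, and p-values then measure only the spread between these libraries.

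Several gene programmes are useful to follow after a compound given by mouth. Immediate early genes are transcribed within minutes of synaptic activity or growth factor signalling and their transcripts decay quickly, so their level follows recent stimulation and handling. Glucocorticoid-responsive genes follow the stress hormone, clock genes the time of day, and glutathione transferases and cytochromes P450 the handling of foreign compounds. Complement C3 is cleaved to C3a, which acts on microglia through the receptor C3ar1, and the series was set up around that axis and microglial glycolysis.

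The libraries held 20.68 to 24.32 M counts in controls and 21.26 to 24.22 M after sedanolide. Slc17a7, the vesicular glutamate transporter of cortical projection neurons, stood at 798 to 1470 CPM (counts scaled to library size and TMM factor) in controls and 1410 to 1810 CPM after sedanolide. Transcripts of the olfactory bulb, which lies in front of the prefrontal cortex, varied far more. Cdhr1, a cadherin of bulb projection neurons, was at 445 and 213 CPM in control replicates 1 and 5 and at 5.01 and 5.85 CPM in control replicates 2 and 4. After sedanolide it was at 222 and 80.4 CPM in replicates 3 and 4 and at 3.8, 5.14 and 9.18 CPM in replicates 1, 2 and 5. Libraries are called bulb-rich from 20 CPM of Cdhr1 and bulb-poor below, which puts 2 of 4 control and 2 of 5 sedanolide libraries among the bulb-rich. The first principal component of the 9 libraries, computed on the 500 genes of highest variance and holding 84.02% of it, separated these sets. Results are therefore given with a bulb index (mean log2 CPM of Cdhr1, Eomes, Doc2g and Shisa3) in the model and in each set where they differ. Summed markers of meningeal and vascular fibroblasts were at 1560, 1560 and 1070 CPM in control replicates 1, 2 and 5 but 220 CPM in control replicate 4, and at 359 to 531 CPM after sedanolide.

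Sedanolide alone was followed by lower transcripts of 8 of 29 immediate early genes (Fos, Dusp1, Btg2 and Junb among them), of Ccn1, Ccn2 and Ddit4, and of 5 of 26 interferon-responsive and 5 of 17 antigen presentation genes, and by higher transcripts of Per2, Zbtb16, Xdh, Sik2 and postsynaptic Shank scaffolds. Fos, Dusp1, Ccn1, Ccn2, Ddit4, Per2, Zbtb16, Xdh, Sik2 and the interferon-responsive gene Ifi27 kept their calls in every fit without 1 control or sedanolide library. The Shank genes, the other called immediate early and interferon-responsive genes and all called antigen presentation genes each lost theirs in some of these fits. LPS libraries, without sedanolide, had means beyond the control range on the same side for Fos, Dusp1, Btg2, Junb, Ccn1, Ccn2 and Ddit4. The same held for Per2, Zbtb16, Xdh, Sik2 and Shank3 (LPS mean 271 CPM, highest control 254 CPM). LPS means of Shank2, Ifi27 and Cd74 lay within the control range, and that of Shank1 (574 CPM) was level with its highest control. For the genes with LPS means beyond the control range the shift from control was therefore not particular to sedanolide. Microglial identity genes and most genes of complement and glycolysis did not pass the test. Of 17757 genes tested, 943 were called (edgeR's quasi-likelihood test, Benjamini-Hochberg adjusted p below 0.05), which is 5.31%, with 568 higher (3.2%) and 375 lower (2.11%). Only 15 of the higher and 65 of the lower genes changed more than 2-fold, and the median size of a called change was 0.45 on the log2 scale for higher and 0.56 for lower genes. Under upper quartile library factors the division was 340 higher and 568 lower. With the bulb index 1466 genes were called (8.26%), 893 higher (5.03%) and 573 lower (3.23%), and 911 of the 943 were among them, each of the 943 with the same sign.

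The number of calls depended on the libraries more than on the direction of change. Fitted on the 9 libraries alone, without the spread of the 10 others, 19 genes were called, while 3372 had an unadjusted p under 0.05, against 4414 in the model of all 19. Leaving out control replicate 5 left 97 calls, sedanolide replicate 4 left 207, sedanolide replicate 5 left 299, control replicate 1 left 440 and sedanolide replicate 1 left 624. Of the 943 genes, 95 were called in all 9 such fits. In bulb-poor libraries 8 genes were called, 5 of them among the 943, and all 940 of the 943 tested there had the same sign. In bulb-rich libraries none was called by edgeR although 3911 had an unadjusted p under 0.05, and all 941 tested had the same sign. These sets are parts of the libraries that chose the genes, so the shared signs are a description. The change was larger in bulb-rich than in bulb-poor libraries for 84.3% of the 938 genes tested in both, with a median size of 0.59 against 0.35.

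**Figure D1:**
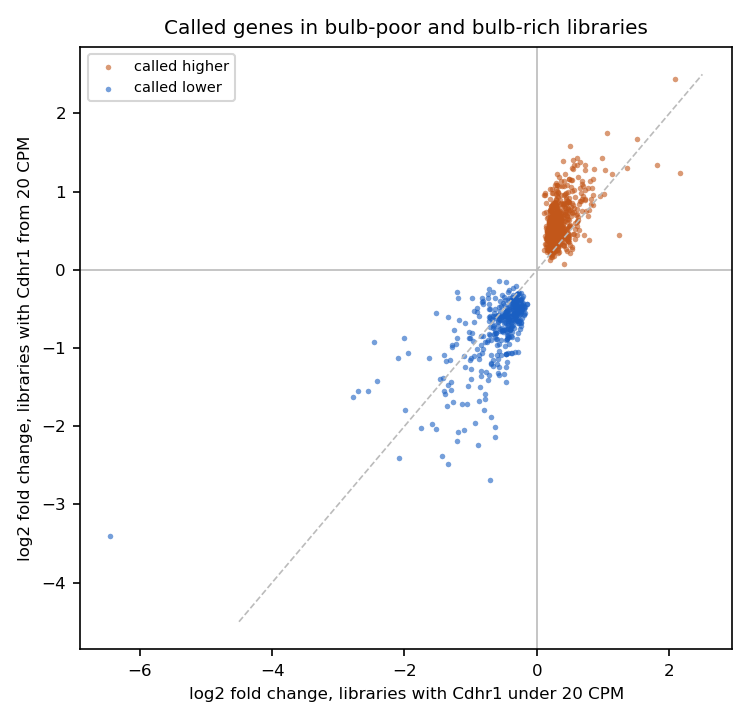
Each point is 1 of the called genes, with its log2 fold change (sedanolide against control) in bulb-poor libraries on the x axis and in bulb-rich libraries on the y axis; the dashed line marks equal change. Each point has the same sign on both axes, and most lie farther from 0 on the y axis (median size 0.59) than on the x axis (0.35). The points were chosen on the same libraries.

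The 2 directions differed in the kind of transcript. Genes called higher were 97% protein-coding, with a median transcript length of 2288.25 bases and a GC content of 54.2%. Genes called lower were 84.8% protein-coding and 11.2% long noncoding RNAs, with medians of 1175.5 bases and 46.6%, and genes not called had medians of 1457 bases and 50.3%. Long noncoding RNAs took 1.008 to 1.056% of counts in controls and 0.889 to 0.952% after sedanolide, with no overlap. The part of transcript length and GC content in the calls was tested only by offsets for both in the model. With these offsets 761 genes were called, 582 of them among the 943, all 943 with the same sign. The part of RNA quality was not tested.

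Of 29 listed immediate early genes 8 were called lower and 3 higher, beside 2.11% and 3.2% of all genes, with a median log2 change of -0.43 against -0.01 over all genes. The groups did not overlap for 9 members lower and 1 higher in the sedanolide group, beside 3.56% and 4.39% of all genes. Junb, Nr4a1, Egr2, Gadd45b, Nr4a3, Ier5 and Homer1 are named because they were called, after their values were seen. The sequences just upstream of 5 of the genes that fell are shown because they moved together; they are the 120 bases before the RefSeq start (GRCm38.p6), 5′ to 3′, from the entry of each gene, or for Egr2 from 1 of 5 entries, chosen as one with matches. Capitals mark TGACG on either strand, the core of the cyclic AMP response element TGACGTCA, and the serum response factor's CArG box.

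Fos, chr12:85473770-85473889, plus strand: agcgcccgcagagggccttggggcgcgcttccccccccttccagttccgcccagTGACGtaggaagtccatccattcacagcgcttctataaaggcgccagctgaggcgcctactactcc
Junb, chr8:84978749-84978868, minus strand: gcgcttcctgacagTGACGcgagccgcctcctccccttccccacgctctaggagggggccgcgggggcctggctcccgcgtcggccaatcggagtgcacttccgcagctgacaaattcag
Nr4a1, chr15:101266726-101266845, plus strand: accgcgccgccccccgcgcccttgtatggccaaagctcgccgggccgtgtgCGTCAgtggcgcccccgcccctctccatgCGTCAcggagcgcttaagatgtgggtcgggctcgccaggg
Egr2, chr10:67537749-67537868, plus strand: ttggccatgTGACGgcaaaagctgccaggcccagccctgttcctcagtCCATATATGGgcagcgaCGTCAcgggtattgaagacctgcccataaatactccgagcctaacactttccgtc
Dusp1, chr17:26508473-26508592, minus strand: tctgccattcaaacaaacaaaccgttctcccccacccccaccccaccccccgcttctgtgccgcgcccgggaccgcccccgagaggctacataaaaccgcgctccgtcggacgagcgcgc

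TGACG stood in the windows of Fos, Junb, Nr4a1 (2 matches) and Egr2 (2 matches) and not in that of Dusp1, nor in those of Btg2, Gadd45b and Nr4a3, the other 3 called lower. Among 32446 distinct windows of this length in the RefSeq file, 11.7% hold TGACG, 1.25% the full element and 0.755% a CArG box, which here only Egr2 had; the full element was in none of the 8. The Egr2 entries differ: those starting at 67535379 and 67537446 hold no TGACG. Of the listed genes called higher, Homer1 had 3 matches in its entry starting at 93303637 and none in that at 93307914. Ier5 had none. The matches were therefore not particular to genes that fell. A match is a description of letters and not a site of binding.

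Fos, a subunit of the AP-1 transcription factor and the usual marker of recent neuronal activity (ENSMUSG00000021250, chromosome 12 from 85520664 to 85524047 in the deposited table, build not given), was at 134, 75, 85.9 and 114 CPM in control replicates 1, 2, 4 and 5. After sedanolide it was at 41.1, 43.8, 44.6, 44.7 and 50.6 CPM. Every sedanolide library lay below every control, and the 2 highest controls were the bulb-rich ones. The mean Fos level was 102 CPM ± 27 (SD, n = 4) in controls and 45 CPM ± 3.47 (SD, n = 5) after sedanolide, 0.439 of the control level (log2 -1.19, SE 0.20, adjusted p = 0.00585, edgeR). The Fos change was -0.86 in bulb-poor and -1.496 in bulb-rich libraries.

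Dusp1, a phosphatase that shuts off MAP kinases (ENSMUSG00000024190, chromosome 17 from 26724564 to 26781102), was at 68.8, 67, 70 and 71.4 CPM in controls and at 37.8, 32.9, 31.2, 36.7 and 46.8 CPM after sedanolide. The controls lay close together and far above all 5 sedanolide libraries (log2 -0.90, SE 0.15, adjusted p = 0.00585, edgeR). Btg2, an antiproliferative gene, was at 47.2, 49.4, 42.1 and 46.8 CPM in controls and 15.6, 16.9, 18.5, 25.8 and 32.6 CPM after sedanolide, again without overlap (-1.08, SE 0.22, 0.0134). Junb, another AP-1 subunit, was at 138, 134, 155 and 139 CPM against 82.7, 91.9, 83.3, 95.5 and 90.8 CPM (-0.67, adjusted p = 0.0137). Nr4a1, an orphan nuclear receptor gene, was at 311, 143, 143 and 218 CPM against 105, 98.2, 113, 123 and 115 CPM (-0.88, 0.0138). For Nr4a1 too the bulb-rich controls were the highest. Egr2, a zinc finger transcription factor gene, fell by 0.54 (0.0161), Nr4a3 by 0.47 (0.0432) and Gadd45b, a growth arrest gene, by 0.39 (0.0289). Gadd45g, its relative in a separate list of activity-regulated effectors, was at 20.6, 19.7, 22.6 and 22.1 CPM in controls and 7.96, 10.9, 14.5, 13.1 and 9.87 CPM after sedanolide (-0.91, SE 0.145, 0.00585).

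Other activity-regulated genes did not pass. Egr1, a zinc finger gene and the most abundant listed immediate early gene, was at 473, 356, 432 and 474 CPM in controls and 427, 374, 308, 415 and 476 CPM after sedanolide, which overlap (-0.12, SE 0.14, adjusted p = 0.627, edgeR). Arc, whose product acts at the synapse, was at 244 to 344 CPM in controls and 186 to 297 CPM after sedanolide, which overlap (-0.24, SE 0.17, adjusted p = 0.402, edgeR). Bdnf, a neurotrophin gene, did not pass either (0.54, SE 0.28, 0.237). The 3 members that rose were Ier5 (63.4 to 73.2 CPM in controls, 89.5 to 139 CPM after sedanolide; 0.64, adjusted p = 0.0135), Nptx2, a secreted pentraxin that gathers AMPA receptors (48.9 to 68.6 against 66.2 to 86.4 CPM; 0.48, 0.023), and Homer1, a postsynaptic scaffold (134 to 206 against 200 to 316 CPM; 0.58, 0.0412). The libraries of Homer1 overlapped between groups. With length and GC offsets Nptx2 was no longer called (adjusted p = 0.0768).

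Several of the called genes of largest fall lie outside that list. Ccn1, a matricellular protein gene (ENSMUSG00000028195, chromosome 3 from 145352731 to 145355736), was at 12.2, 22.1, 22.5 and 17.9 CPM in controls and at 4.44, 3.67, 6.49, 8.06 and 9.55 CPM after sedanolide. It fell to 0.346 of the control level (log2 -1.53, SE 0.27, adjusted p = 0.00597, edgeR). Ccn2, its relative that neurons of the deepest cortical layer also express (ENSMUSG00000019997, chromosome 10 from 24471340 to 24474581), was at 53.5, 35.8, 40.1 and 50.5 CPM against 9.29, 18.8, 23.8, 16.2 and 13.9 CPM, and fell to 0.365 (-1.46, SE 0.24, 0.00585). Both genes separated the groups in full. Foxp2, a transcription factor gene of deep cortical layers, was at 10.5 to 21.2 CPM in controls and 8.39 to 10.1 CPM after sedanolide (-0.79, SE 0.18, adjusted p = 0.0199, edgeR). Ccn2 and Foxp2 were the 2 genes called lower of 19 tested markers of excitatory cortical neurons, beside 2.11% of all genes. The list as a whole did not fall: none was called higher, but 12 of the 19 had a positive change (median 0.33). Thbs1, encoding thrombospondin 1, was at 3.14 to 8.09 CPM in controls and 1.6 to 2.56 CPM after sedanolide (-1.47, SE 0.37, 0.0289). Apold1, an early response gene of endothelium (-1.97, SE 0.55, 0.0455), ranged from 12.1 to 69.3 CPM among controls and from 5.98 to 17.3 CPM after sedanolide, with control replicate 4 inside the sedanolide range. Cebpd, a transcription factor gene of the acute-phase response, had the same order (3.93 to 19 against 2.28 to 6.36 CPM; -1.597, SE 0.35, 0.0183).

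**Figure D2:**
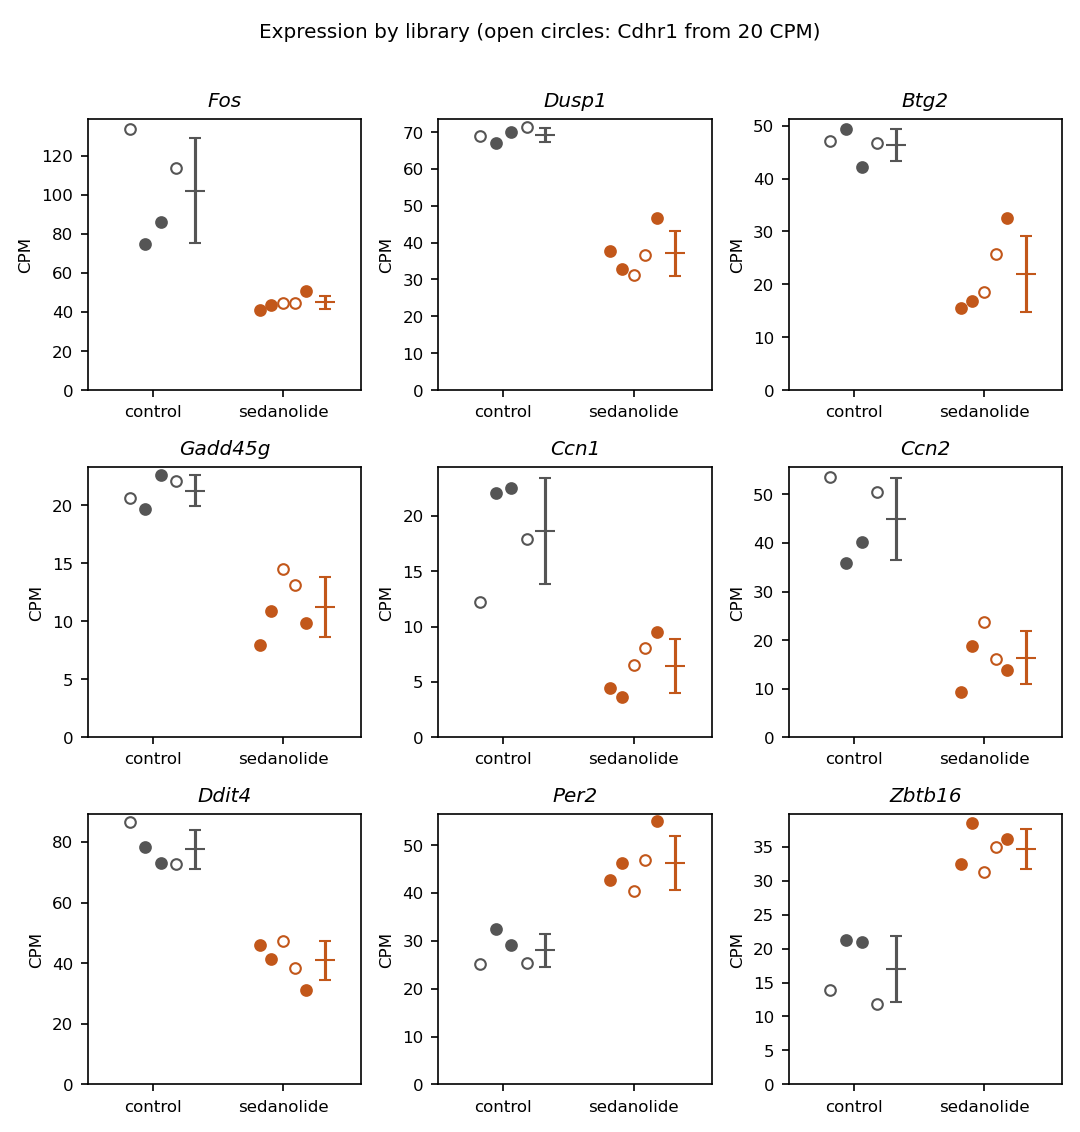
CPM of 9 genes in each library (y axis from 0), controls in grey and sedanolide libraries in orange; open circles are bulb-rich libraries, and the bar beside each group is the mean ± SD. The groups are apart in all 9 panels, with sedanolide libraries below controls for 7 genes and above them for Per2 and Zbtb16.

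Stress-hormone genes moved in both directions. Of 22 glucocorticoid-responsive genes 2 were called higher and 2 lower, beside 3.2% and 2.11% of all genes (median -0.05). Dusp1 was 1 of the 2 lower. Ddit4, an inhibitor of mTOR signalling that is induced by glucocorticoids and hypoxia (ENSMUSG00000020108, chromosome 10 from 59785491 to 59787656), was at 86.5, 78.2, 73 and 72.8 CPM in controls and 46, 41.3, 47.4, 38.5 and 31.2 CPM after sedanolide. The groups were far apart (log2 -0.93, SE 0.11, adjusted p = 0.000586, edgeR). Zbtb16, a zinc finger gene that glucocorticoids induce (ENSMUSG00000066687, chromosome 9 from 48565597 to 48747522), went the other way, from 13.9, 21.3, 21 and 11.8 CPM to 32.4, 38.5, 31.2, 34.9 and 36.1 CPM, a 2.04-fold rise (1.03, SE 0.16, 0.00417). Its 2 lowest controls were the bulb-rich ones, and the Zbtb16 change was 0.73 in bulb-poor and 1.345 in bulb-rich libraries. Map3k6, a stress kinase gene named because it was called, rose from 1.85 to 3.38 CPM in controls to 4.39 to 5.91 CPM (0.94, 0.0106). Fkbp5, a co-chaperone of the glucocorticoid receptor, stood at 24.6 to 32.2 CPM in controls and 32.3 to 44.4 CPM after sedanolide and did not pass the test (0.43, SE 0.13, 0.0642), while it did with the bulb index (0.49, 0.0229). Plin4, a lipid droplet coat gene, behaved alike (1.01, 0.0834, and 1.13, 0.0369).

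Of 18 clock genes 2 were called higher and none lower, beside 3.2% and 2.11% of all genes (median 0.19). Per2, a repressor of the clock (ENSMUSG00000055866, chromosome 1 from 91343704 to 91387046), was at 25.2, 32.5, 29.1 and 25.3 CPM in controls and at 42.6, 46.3, 40.4, 46.8 and 55 CPM after sedanolide, a 1.65-fold rise (0.72, SE 0.105, adjusted p = 0.00311, edgeR). Bhlhe40, a light- and activity-inducible repressor, rose by 0.57 (0.0404) with overlapping libraries (89.9 to 131 against 110 to 197 CPM). Nr1d1, encoding REV-ERB alpha, was at 78.5 CPM ± 4.93 (SD, n = 4) in controls and 95.7 CPM ± 6.57 (SD, n = 5) after sedanolide, without overlap but not called (0.29, SE 0.09, adjusted p = 0.0696, edgeR). Time of day at dissection is not among the labels, and its part was not tested.

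Among the genes of largest rise were several with known enzymatic or vascular roles. Xdh, xanthine dehydrogenase, which makes uric acid (ENSMUSG00000024066, chromosome 17 from 74190890 to 74257191), went from 5.02, 5.15, 3 and 3.63 CPM to 7.51, 8.32, 8.98, 8.18 and 9.41 CPM (2.01-fold; 1.01, SE 0.16, adjusted p = 0.00585, edgeR). Sik2, a salt-inducible kinase that restrains CREB-dependent transcription, went from 11.5, 10.4, 8.01 and 6.06 CPM to 15.6, 15.6, 21.3, 18.8 and 19.5 CPM (2.01-fold; 1.01, SE 0.15, 0.00336). Sox18, a transcription factor gene of endothelium, went from 7.5, 10.1, 6.98 and 7.1 CPM to 12.9, 13.4, 17.3, 18.4 and 16.9 CPM (0.995, SE 0.17, 0.00585). None of 20 endothelial identity genes was called by edgeR (median 0.08), with 6 at an unadjusted p under 0.05. Syt2, a calcium sensor of fast-spiking synapses, rose 2.27-fold (3.73 to 7.84 against 10.7 to 16.2 CPM; 1.18, SE 0.27, 0.0209). Tmem215 (0.813 to 1.88 against 2.62 to 7.18 CPM; 1.65, SE 0.44, 0.0381) and the axon guidance receptor gene Robo3 (1.07 to 1.95 against 2.01 to 4.98 CPM; 1.21, SE 0.32, 0.0349) had the largest rises among well-expressed genes (mean log2 CPM from 1 up). Exph5 (1.10, 0.0423), Serinc2 (1.00, 0.0485) and Rnf39 (0.97, 0.0324) completed the 10 largest.

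Of 26 genes of glutamate receptors and their scaffolds 4 were called higher, beside 3.2% of all genes, and none lower (median 0.19). With the bulb index 6 were called higher, beside 5.03%. The 4 were Homer1 and the postsynaptic density scaffolds Shank1 (355 to 574 CPM in controls, 527 to 746 CPM after sedanolide; 0.59, SE 0.15, adjusted p = 0.0327, edgeR), Shank2 (140 to 226 against 205 to 281 CPM; 0.48, 0.0382) and Shank3 (120 to 254 against 243 to 323 CPM; 0.73, SE 0.19, 0.0331). All 4 had overlapping libraries, with control replicate 2 the highest control for the Shank genes. The Shank3 change was 0.31 in bulb-poor and 1.23 in bulb-rich libraries. Shank1 (0.0519) and Shank2 (0.102) were no longer called with length and GC offsets. No receptor subunit gene was called, and none of 19 GABA-A receptor and GABA handling genes (median -0.02, edgeR, 3 at an unadjusted p under 0.05).

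Of 26 listed interferon-responsive genes 5 were called lower and none higher, beside 2.11% of all genes called lower, and 25 of the 26 had a negative change (median -0.61). Ifi27 (ENSMUSG00000064215, chromosome 12 from 103400470 to 103406498) was at 32.7, 24.2, 26.7 and 31.9 CPM in controls and 17.8, 19.2, 20.8, 18 and 16.6 CPM after sedanolide (-0.64, SE 0.12, adjusted p = 0.00761, edgeR). Rtp4 (-0.74, 0.014), Bst2, encoding tetherin (-0.93, SE 0.21, 0.0201), the guanylate-binding protein gene Gbp2 (-0.60, 0.0213) and Ifit2 (12.1 to 20.9 against 10.1 to 11.3 CPM; -0.64, 0.03; named because it was called) were the others. The list's median was -0.25 in bulb-poor and -0.72 in bulb-rich libraries. Ifi27l2a, outside the list, had the largest fall among called protein-coding genes of that level (0.589 to 3.44 against 0.229 to 0.711 CPM; -2.06, SE 0.53, 0.0338).

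Of 17 antigen presentation genes 5 were called lower and none higher, beside 2.11% and 3.2% of all genes (median -0.41). Of these, 4 belong to class II, whose products are made by border macrophages, dendritic cells and few other cells in the brain. H2-Ab1 was at 9.35, 3.43, 1.47 and 4.51 CPM in control replicates 1, 2, 4 and 5 and at 1.6, 1.47, 1.47, 1.72 and 1.78 CPM after sedanolide (-1.55, SE 0.36, adjusted p = 0.0219, edgeR). Cd74, the invariant chain, was at 21.7, 11.1, 4.67 and 14.3 CPM against 3.52, 4.4, 5.91, 4.66 and 5.98 CPM (-1.41, SE 0.33, 0.023). For both, 3 controls lay above all sedanolide libraries and control replicate 4 lay among them. H2-Aa (-1.69, 0.0267) had the same order, for H2-Eb1 (-1.45, 0.0243) control replicate 4 (1.62 CPM) was below every sedanolide library, and H2-Q4, a class I gene with near-identical copies and so uncertain, was at -0.67 (0.0493). Fgl2, a fibrinogen-like immune protein gene, was at 8.05, 4.82, 1.72 and 5.6 CPM against 1.33, 1.22, 1.51, 1.76 and 1.83 CPM (-1.72, SE 0.36, 0.0152).

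Markers of meningeal and vascular fibroblasts moved with these genes: 16 of 16 had a negative change (median -1.07, and -0.78 with the bulb index), and 2 were called lower, beside 2.11% of all genes. Dcn, the proteoglycan decorin (ENSMUSG00000019929, chromosome 10 from 97315471 to 97354005), was at 36.6, 25, 11 and 27.3 CPM in controls and 6.54, 8.61, 7.74, 7.85 and 10.6 CPM after sedanolide (-1.596, SE 0.34, adjusted p = 0.0165, edgeR). Lum, lumican, was at 2.26 to 6.44 against 1.07 to 3.43 CPM (-1.16, 0.0432). Of 13 border macrophage markers 1 was called lower, beside 2.11% of all genes: Ms4a7 (0.295 to 1.07 against 0.196 to 0.32 CPM, -1.45, adjusted p = 0.0352, edgeR). Among the 13, 12 had a negative change (median -0.86), with summed levels of 60.9 to 118 CPM in controls and 61.6 to 90 CPM after sedanolide. Markers of monocytes and lymphocytes were lower in median (-1.21) with none of 11 called by edgeR (5 at an unadjusted p under 0.05) and summed levels of 10.2 to 15.9 CPM in controls and 11.2 to 28.5 CPM after sedanolide. The part of these cells in the class II and interferon values was not tested. No marker of these lists was at 0 in all 9 libraries. With the mean log2 CPM of the fibroblast list as a covariate, an alternative added after the data were seen, 162 genes were called. Fos, Dusp1, Junb, Gadd45g, Ccn1, Ccn2, Ddit4, Per2, Zbtb16, Xdh, Sik2, Sox18, Ifi27 and Mgst1 were among the 19 of 70 followed calls that were kept; the other 51 were lost, those of the class II genes included.

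**Figure D3:**
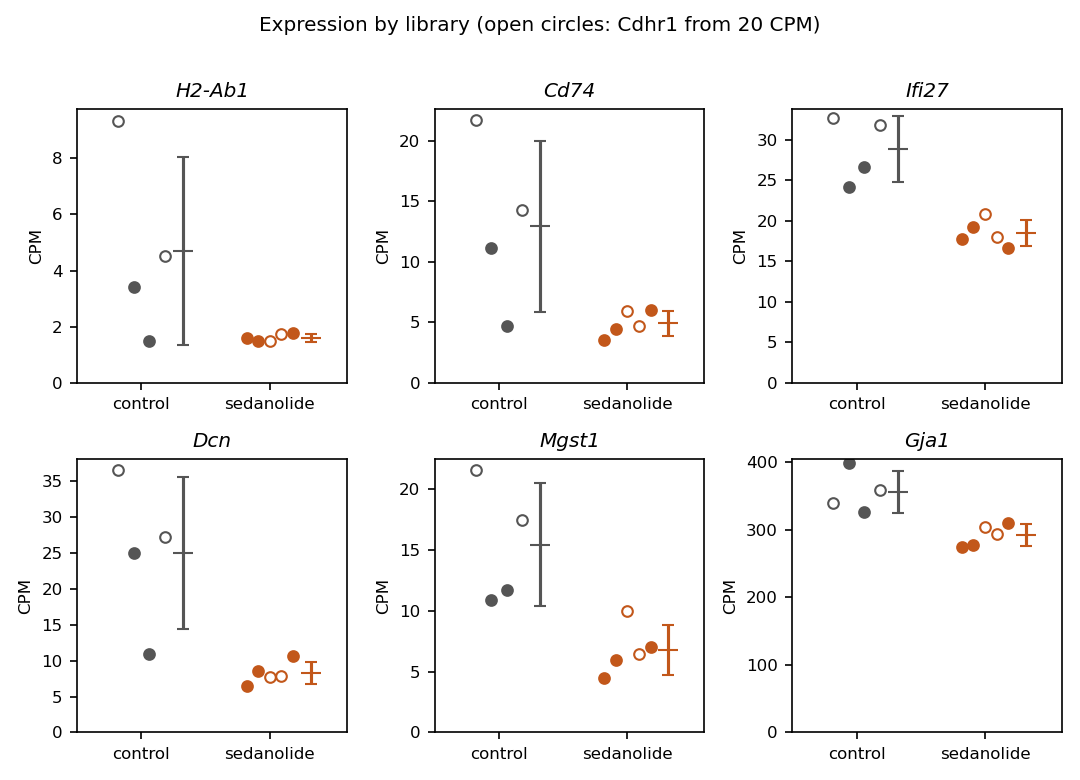
CPM of 6 genes in each library (y axis from 0), controls in grey, sedanolide in orange, open circles for bulb-rich libraries, and mean ± SD beside each group. For H2-Ab1 and Cd74 control replicate 4 (1.47 and 4.67 CPM) sits among the sedanolide libraries, while for Ifi27, Dcn, Mgst1 and Gja1 the groups do not overlap, except that Mgst1 and Dcn come close (10 and 10.6 CPM in the highest sedanolide libraries, 10.9 and 11 CPM in the lowest controls).

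C3 was at 0.924, 0.417, 1.62 and 0.71 CPM in controls and 0.0915, 0.44, 0.4, 0.504 and 0.228 CPM after sedanolide, low in both groups and overlapping (-1.43, SE 0.37, adjusted p = 0.0344, edgeR). Of 22 complement genes it was the 1 called, a share near that of all genes, and 5 had an unadjusted p under 0.05 (median -0.22). C3ar1, the C3a receptor, was at 3.88, 5.15, 2.36 and 3.22 CPM against 3.02, 2.59, 2.8, 2.81 and 4.48 CPM and did not pass (-0.22, SE 0.20, 0.525). C1qa, the microglial recognition component, was at 47.4 to 76.4 against 56.1 to 68.9 CPM (0.05, SE 0.12, 0.847).

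None of 16 homeostatic microglia genes was called (median 0.04, 4 at an unadjusted p under 0.05), with Tmem119 at 0.32 (SE 0.13, adjusted p = 0.134, edgeR) and Cx3cr1 at 0.25 (SE 0.13, 0.223). Of 22 activated microglia genes tested 1 was called, beside 5.31% of all genes: the lysozyme gene Lyz2, which was at 10.9 to 22.6 CPM in controls and 6.7 to 13.2 CPM after sedanolide (-0.87, SE 0.21, 0.0288). Cd68 (0.03, SE 0.13) and Aif1, encoding Iba1 (-0.17, SE 0.27), were not. Of 23 cytokine and NF-kB genes tested 2 were called lower and 1 higher, beside 2.11% and 3.2% of all genes. Nfkbia, the inhibitor that NF-kB induces, was lower (21.8 to 41.6 against 18.9 to 23.4 CPM, -0.61, SE 0.13, adjusted p = 0.0163, edgeR). The inflammasome gene Nlrp3 was higher (0.491 to 0.702 against 0.845 to 1.87 CPM, 0.91, SE 0.25, adjusted p = 0.0437, edgeR). Cxcl1, a neutrophil chemokine gene, was called lower (adjusted p = 0.0129) on 4, 20, 1 and 10 counts in controls against 1 count in sedanolide replicate 3 and none in the other 4, too few for a fold change. Il1b did not pass (-0.33, SE 0.46, 0.682), and Tnf and Il6 were below the expression filter. Of 25 reactive astrocyte genes 2 were called lower, beside 2.11% of all genes: Gbp2 and S100a10 (-0.58, adjusted p = 0.0309, edgeR). Gfap was not called (120 to 371 against 69.2 to 317 CPM, -0.56, SE 0.36, adjusted p = 0.338, edgeR). Of 15 astrocyte identity genes 1 was called lower, beside 2.11% of all genes. It was Gja1, the gap junction protein connexin 43 (326 to 398 against 274 to 310 CPM, -0.28, SE 0.08, adjusted p = 0.0463, edgeR).

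Of 31 genes of glycolysis and lactate transport 1 was called, beside 5.31% of all genes: Pfkfb3, which activates phosphofructokinase (33.6, 32.9, 26.5 and 27.6 CPM in controls, 40.5, 32.7, 40.6, 37.8 and 38.2 CPM after sedanolide; 0.33, SE 0.09, adjusted p = 0.0365, edgeR). Pfkfb3 was not called with length and GC offsets (0.0948). The list's median was 0.11. Hk2 (0.14, SE 0.14, 0.569), Pkm (0.06, SE 0.08, 0.659), Ldha (0.19, SE 0.14, 0.41) and the glucose transporter gene Slc2a1 (0.35, SE 0.14, 0.125) did not pass. None of 35 nuclear oxidative phosphorylation genes (median -0.16) or 13 mitochondrial ones (-0.15) was called by edgeR, with 11 and 0 at an unadjusted p under 0.05, and of the ribosomal protein genes Rpl8 was lower (-0.25, adjusted p = 0.0464, edgeR; median of the 30 listed -0.30). None of these 30 had a positive change, and 23 had an unadjusted p under 0.05. With the bulb index 11 of them were called lower, beside 3.23% of all genes.

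Enzymes of drug handling were lower where they changed, apart from 1. Of 28 tested, 5 were called lower and 1 higher, beside 2.11% and 3.2% of all genes (median -0.04). Mgst1, a microsomal glutathione transferase (ENSMUSG00000008540, chromosome 6 from 138117314 to 138133753), was at 21.6, 10.9, 11.7 and 17.5 CPM in controls and 4.44, 5.97, 10, 6.42 and 6.99 CPM after sedanolide (-1.19, SE 0.23, adjusted p = 0.0103, edgeR). Cyp2e1, the ethanol-inducible cytochrome, was at 0.887, 0.464, 3.05 and 1 CPM against 0.0915, 0.293, 0.267, 0.378 and 0.411 CPM (-2.19, SE 0.51, 0.023), with control replicate 4 far above the rest. The glutathione transferase genes Gsta3 (-1.35, 0.0383), Gstm2 (-1.40, 0.0401) and Gstt2 (-0.67, 0.0431) are named because they were called, and Gstm genes have close copies. Cyp46a1, the neuronal cholesterol 24-hydroxylase, rose (101 to 152 against 159 to 188 CPM; 0.41, SE 0.11, 0.0382). Of 25 NRF2 targets, genes of the antioxidant response, 1 was called lower, beside 2.11% of all genes: Prdx1 (-0.34, SE 0.10, adjusted p = 0.0454, edgeR). Nqo1 (-0.64, SE 0.21, 0.0751) and Hmox1 (0.15, SE 0.17, 0.613) did not pass. Srebf2, the regulator of cholesterol synthesis, rose by 0.35 (adjusted p = 0.0406, edgeR). It was the 1 gene called higher of 22 in that list, beside 3.2% of all genes, and none was called lower. Cirbp, the cold-inducible RNA-binding protein gene, fell by 0.41 (0.0349).

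**Figure D4:**
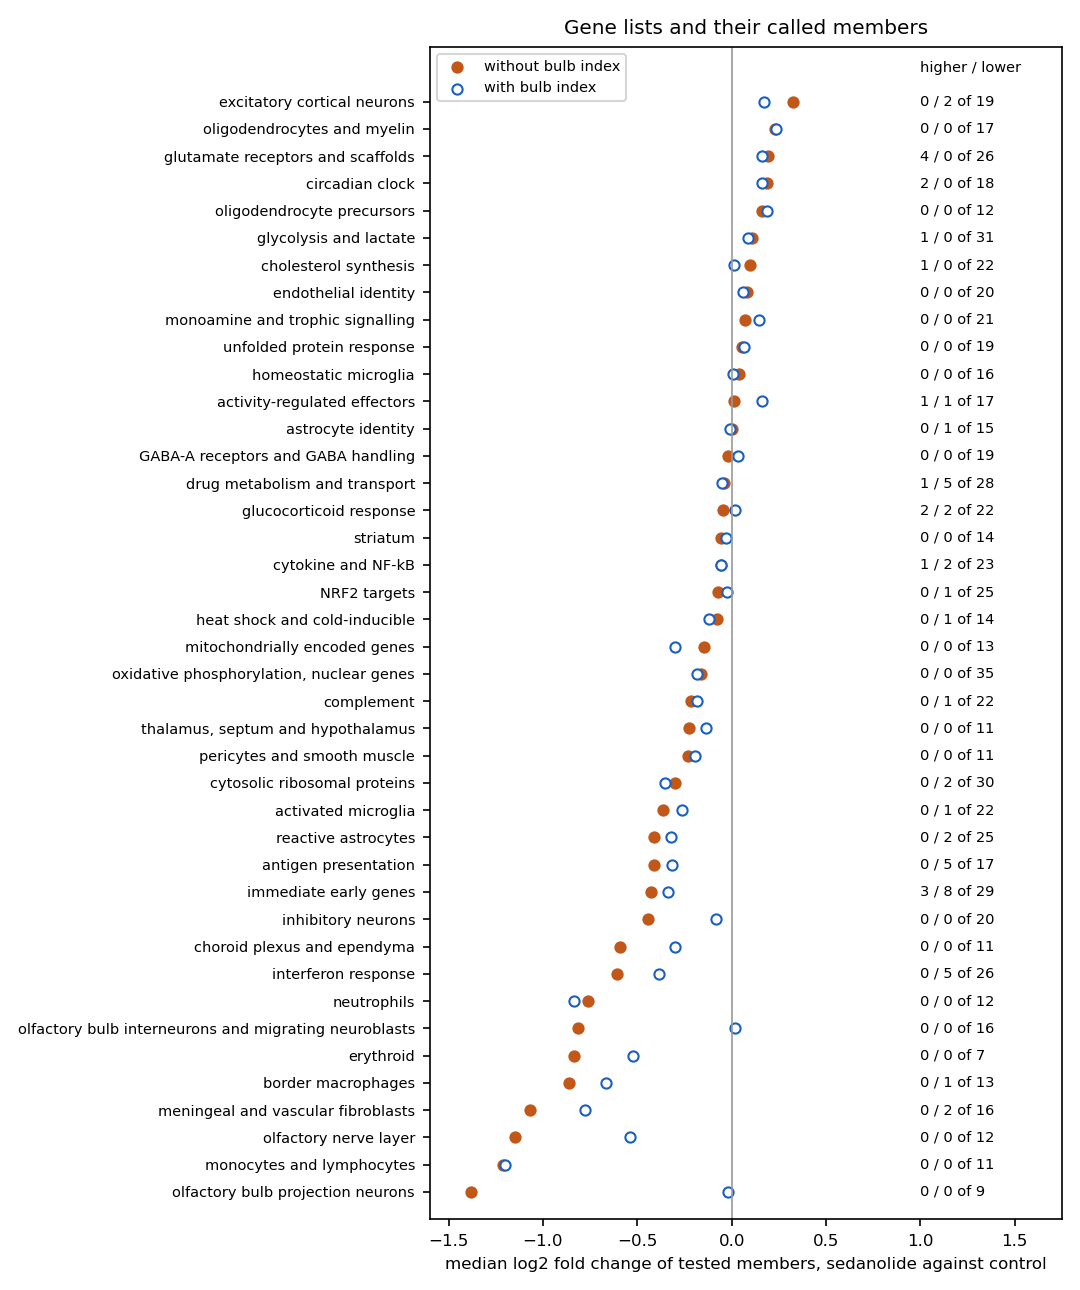
Median log2 fold change (sedanolide against control) of the tested members of 41 gene lists without the bulb index (filled) and with it (open), with the number of members called higher and lower at the right. Immediate early genes (-0.43 without and -0.34 with the index), interferon genes (-0.61 and -0.38) and fibroblast markers (-1.07 and -0.78) lie below 0 in both. Bulb projection neuron markers lie lowest without the index (-1.38) and near 0 with it (-0.02). That list includes index markers, so its value with the index was in part set in advance and is no contrast to the others.

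Of 70 called genes followed across the fits, 14 stayed below 0.05 in all 9 fits without 1 control or sedanolide library: Fos, Dusp1, Gadd45g, Ccn1, Ccn2, Ddit4, Per2, Zbtb16, Xdh, Sik2, Sox18, Ifi27, Mgst1 and Cxcl1. The other 56 all lost their call without control replicate 5. Without that library alone, and no other, the calls of Junb (adjusted p = 0.0527, edgeR), Egr2 (0.0769), Nr4a1 (0.0652), Btg2 (0.0527), Ier5 (0.0523), Map3k6 (0.0523), Nfkbia (0.0632), Rtp4 (0.0787) and Fgl2 (0.0638) were lost. Nptx2 (up to 0.0845) and Foxp2 (up to 0.0859) were lost without control replicate 5 or sedanolide replicate 4, and Gbp2 (up to 0.0891) without control replicate 1 or 5. The class II genes H2-Ab1, Cd74 and H2-Eb1, Dcn and Bst2 were each lost in 3 fits (up to 0.0962). All 4 of the Shank1, Shank2, Shank3 and Bhlhe40 calls were lost in 4 to 6 fits, without control replicates 1 and 5 and sedanolide replicates 4 and 5 among them (up to 0.154). C3 was lost in 6 fits (up to 0.0843) and Lyz2 in 4 (0.108). Pfkfb3 (0.148), Prdx1 (0.179), Apold1 (0.152) and Cyp46a1 (0.135) were lost in 5 or 6. On the 9 libraries alone Fos (adjusted p = 0.0279), Dusp1 (0.0217), Junb (0.0217) and Ddit4 (0.0279) were called, and in bulb-poor libraries alone Fos, Ddit4, Gadd45g and Apold1 (0.0448 each).

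The last comparison asked whether the sedanolide change was the same in mice given LPS. It used the difference between the change from LPS to co-treated libraries and the change from control to sedanolide libraries (the interaction, edgeR, adjusted over all genes; 0.586% of genes called), which has no library in common between its 2 sides. All 5 co-treated libraries were bulb-poor and 3 of 5 LPS libraries bulb-rich, so bulb-poor values are given too. An interaction was called for 31 of the 568 higher and 31 of the 375 lower genes. The sedanolide change that chose these genes is 1 side of the interaction, so the counts are a description and cannot be read against the share of all genes. Of the higher and lower genes, 395 and 266 had the same sign in co-treated against LPS. In that comparison, where 1.97% of genes were called, 6 of the higher genes were called in the same and 3 in the opposite direction, and 13 and 8 of the lower genes.

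Fos was among the genes that reversed: 32 CPM ± 12.5 (SD, n = 5) with LPS and 61 CPM ± 7.14 (n = 5) in co-treated libraries, a change of 0.93, against -1.19 without LPS (interaction 2.12, SE 0.28, adjusted p = 0.00105, edgeR; 2.07 in bulb-poor libraries, 0.000226). Egr2 (-0.54 without and 1.36 with LPS, 5.48e-06), Junb (-0.67 and 0.84, 0.000596), Nr4a1 (-0.88 and 0.75, 0.00526) and Dusp1 (-0.90 and 0.85, 0.000472) reversed likewise, each with adjusted p below 0.05 in bulb-poor libraries. Arc, at -0.24 without LPS, was at 1.46 with it (0.00182). Ccn1 was at -1.53 and 0.65 (0.00966), Ddit4 at -0.93 and 0.31 (0.000492), and Gadd45g at -0.91 and 0.29 (0.00883). In the other direction Xdh was at 1.01 without and -0.90 with LPS (0.000235), Zbtb16 at 1.03 and -0.37 (0.00396), Sik2 at 1.01 and -0.24 (0.00722), Sox18 at 0.995 and -0.47 (0.00571) and Plin4 at 1.01 and -1.69 (0.0111). In bulb-poor libraries the interactions of Xdh (0.023) and Zbtb16 (0.0248) passed and those of Sik2 (0.125), Sox18 (0.283) and Plin4 (0.262) did not. The change with LPS on board was itself called for Xdh (adjusted p = 0.00315, edgeR) and Plin4 (0.0087). It was not called for Zbtb16 (0.172), Sik2 (0.333), Sox18 (0.117) or Ccn1 (0.174). For the genes above, LPS against control had the sign of sedanolide alone, as for Ccn1 (-1.54, adjusted p = 0.000455, edgeR) and Xdh (1.37, 5.3e-06). Co-treated means of Fos, Junb, Nr4a1, Dusp1, Ccn1, Ddit4, Gadd45g, Xdh, Zbtb16, Sik2 and Sox18 lay between the LPS mean and the control range. Those of Egr2 and Plin4 lay within the control range, and that of Arc above it. C3 was lower in both settings (-1.43 and -1.14, interaction 0.29, 0.799), as were Cd74 (-1.41 and -0.75, 0.5), Dcn (-1.596 and -0.98, 0.551), Mgst1 (-1.19 and -0.79, 0.573) and Ccn2 (-1.46 and -0.75, 0.31). Of these 5, C3 was called with LPS on board (adjusted p = 0.0177), and a difference that does not pass is not shown to be absent.

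**Figure D5:**
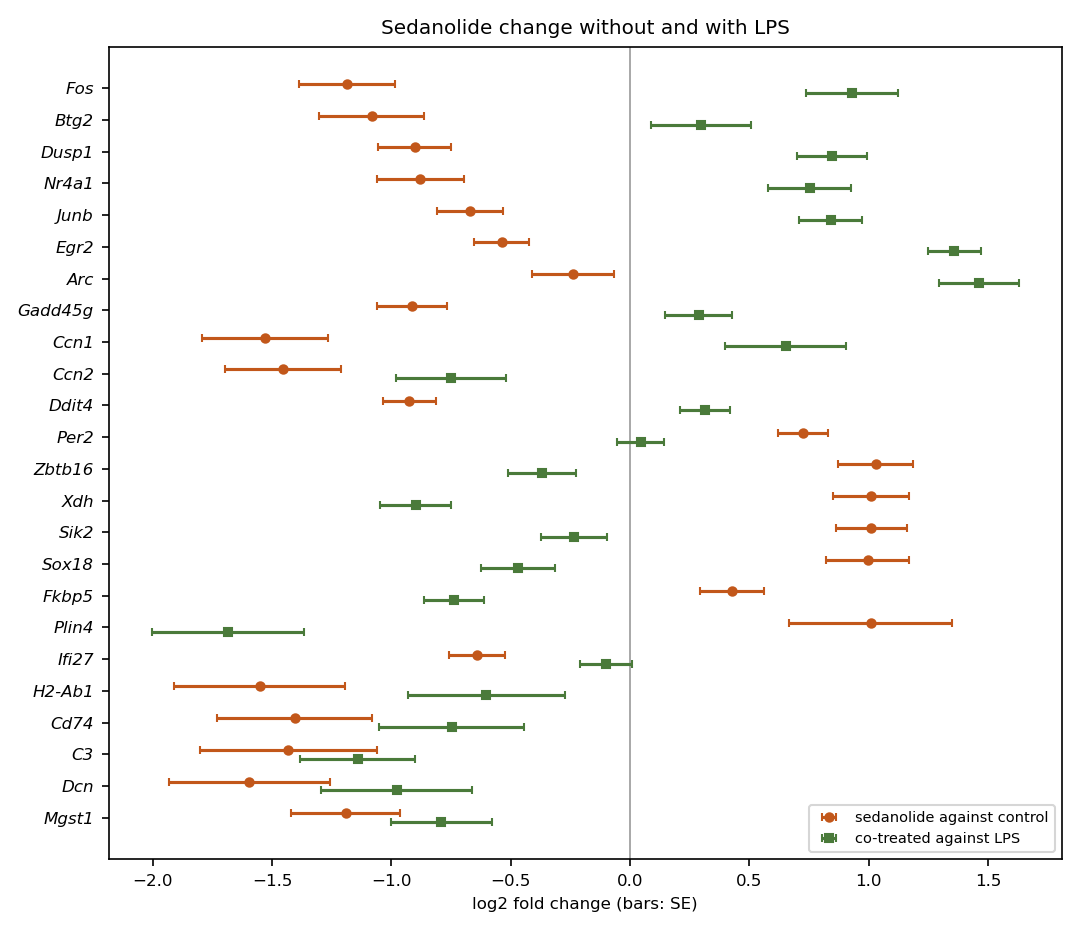
Log2 fold change with its SE for 24 genes, sedanolide against control (orange circles) and co-treated against LPS (green squares). The immediate early genes lie left of 0 without LPS and right of it with LPS (Fos at -1.19 and 0.93), Xdh and Zbtb16 the reverse, and C3, Cd74 and Dcn lie left of 0 in both. The change of Zbtb16 with LPS was not called (adjusted p = 0.172, edgeR).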

How the data were processed

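Poly(A) RNA libraries of mouse medial prefrontal cortex were sequenced in 19 libraries, of which 4 control and 5 sedanolide libraries are compared here. The authors deposited raw counts per gene for 57010 genes, not normalized. Per the submitters' processing notes the tools were fastp, HISAT2, StringTie, RSEM and DESeq2; the counting settings, strand use and genome build are not given in the sources used here, so reads of overlapping or antisense genes may be mixed and coordinates are those of the deposited table.

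Counts were tested with edgeR 4.0.16 (R 4.3.3): TMM factors, expression filter by group (17757 genes left), quasi-likelihood test with robust dispersion, 1 model of all 19 libraries, two-sided, Benjamini-Hochberg adjustment over all genes. SE was derived from the log2 change and F. DESeq2 1.42.0 and limma 3.58.1 (voom), other factors and filters, a replicate block, left-out libraries, the bulb index, Cdhr1 sets at 20 CPM, and, added after the data were seen, offsets for length and GC content (GENCODE M21 transcripts by gene ID) and a fibroblast covariate were alternatives. Scripts were tested on simulated data.

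Members, lists and tests were chosen with earlier results of these data known. Genes are named by rule: the 10 of largest change in each direction (protein-coding, mean log2 CPM of at least 1), with and without the bulb index, a fixed panel, and per list the most abundant member and up to 3 of smallest p. A control replicate 3 was not analysed here. Promoters come from the RefSeq table (GRCm38.p6), in which 63 of 91 genes of the text have an entry used. Replicate numbers did not pair libraries. The result of 1 called gene is not reported here.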

Additional observations from a re-analysis of the deposited data

Results flagged for a closer look

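The change after sedanolide differed with LPS in 21 named genes (interaction, edgeR's quasi-likelihood test, adjusted over all genes). The difference (co-treated minus LPS, less sedanolide minus control, on the log2 scale) was positive for Ccn1 (2.18), Fos (2.12), Egr2 (1.896), Dusp1 (1.748), Arc (1.70), Nr4a1 (1.63), Junb (1.51), Btg2 (1.38), Ddit4 (1.24), Gadd45g (1.20), Nr4a3 (0.997) and Gadd45b (0.74). It was negative for Plin4 (-2.69), Xdh (-1.91), Sox18 (-1.47), Zbtb16 (-1.40), Map3k6 (-1.33), Sik2 (-1.246), Fkbp5 (-1.16), Slc2a1 (-0.944) and Per2 (-0.68). Leaving out 1 of the 19 libraries at a time, Btg2 passed in 4 fits, Per2 in 7, Slc2a1 in 9, Map3k6 in 18 and the other genes in all 19. LPS libraries were bulb-rich in 3 of 5 cases and co-treated libraries in none, and the part of bulb content was tested only by the bulb index and the bulb-poor fit.

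Of 192 groups checked library by library, 7 had a library far from the others, fewer than the 1 in 20 that chance gives. Egr2 was at 15.7 CPM in sedanolide replicate 3, Sox18 at 10.1 CPM in control replicate 2 and C3ar1 at 4.48 CPM in sedanolide replicate 5. Nlrp3 was at 1.87 CPM in sedanolide replicate 5, Tmem119 at 44.4 CPM and Rpl8 at 282 CPM in control replicates 2 and 1, and Cxcl1 at 0.0445 CPM in sedanolide replicate 3 with the other 4 at 0.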

How the results depend on the processing

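The number of genes called, 943, was 439 without an expression filter, 1860 with DESeq2, 4399 with limma-voom and sample quality weights together, 19 on the 9 libraries alone, 317 with a 1.5-fold minimum and 1466 with the bulb index. It was 8 in bulb-poor and 0 in bulb-rich libraries, 162 with the fibroblast index and 596 with both indices, and ran from 97 (without control replicate 5) to 1410 (without control replicate 4). Shared replicate numbers did not go with shared deviations, and a replicate block gave 95 calls, or 213 with the bulb index. The count with the bulb index, 1466, was 906 without a filter and 701 on 9 libraries, and ran from 216 (without sedanolide replicate 4) to 2066 (without sedanolide replicate 2). In bulb-poor libraries 12 named interactions passed, against 21, and Apold1 (adjusted p = 0.0279, edgeR) was not among the 21 (0.592). No named call changed sign under any setting run. The causes were not tested. An offset for length alone was not run. Depth limits Cxcl1, C3, Cyp2e1 and other genes below 1 CPM.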

Other observations

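These families were chosen after their values were seen. Of 11 SR splicing factor genes 5 were called lower and none higher, beside 2.11% of all genes called lower (median log2 change -0.26), among them Srsf1 (-0.40), though 2 with length and GC offsets. Of 4 CLK kinase genes, whose products phosphorylate SR proteins, 2 were lower: Clk1 was at 85.2 CPM ± 5.51 (SD, n = 4) in controls and 51.2 CPM ± 6.73 (SD, n = 5) after sedanolide (-0.73, SE 0.12, adjusted p = 0.00585, edgeR), and Clk4 changed by -0.52 (0.0258); 1 of the 2 was called with length and GC offsets. All 14 snoRNA host genes had a negative change (median -0.57), with Snhg20 called (-0.77, 0.0236). Of 10 adenylate cyclase genes 3 were called higher, beside 3.2% of all genes, with Adcy9 at 0.90 (SE 0.13, 0.00336), and 1 with length and GC offsets.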
